A study of Mus musculus with 6 samples.

Results

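Transcripts of 10 glutathione S-transferase genes were read in mouse lung. They were the 7 mu class genes Gstm1 to Gstm7, the pi class gene Gstp1, and the alpha class genes Gsta3 and Gsta4. The genes were chosen by name among the 25860 genes of the count table, to ask whether the relatives of Gstm5, a gene that the study singled out in the same comparison, followed it. The libraries were made from normal-looking lung of 12-month-old mice that received no treatment. The RAG1-/- group (replicates 1, 2 and 3) lacked the recombinase that assembles antigen receptor genes, so these animals are expected to hold no mature T or B cells. The RAG1-/- Sgo1-/+ group (replicates 4, 5 and 6) carried the same deletion and had in addition a single working copy of Sgo1, which encodes the Shugoshin protein that guards sister chromatid cohesion. Each library came from 1 mouse, and both mutations were inherited through the germline.

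Glutathione is a small thiol peptide and a main antioxidant of cells. Glutathione S-transferases (GSTs) join it to reactive, often toxic molecules, after which the conjugate is exported and broken down. In lung, these enzymes are known to be abundant in airway epithelium, where inhaled chemicals are oxidised. The soluble enzymes fall into classes by sequence, and the mu class genes of the mouse lie side by side.

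In the reference annotation (GRCm38) the 7 mu class genes were neighbours on chromosome 3, in the order Gstm5, Gstm7, Gstm6, Gstm3, Gstm2, Gstm1 and Gstm4. Gstm5, at one end of the row, lay on the plus strand and the other 6 on the minus strand. Gstp1 lay on chromosome 19, Gsta3 on chromosome 1 and Gsta4 on chromosome 9. The beginnings of the coding sequences are shown to let Gstm5 be compared with its neighbours, since reads can be assigned to a gene only where its sequence differs from the others. Each line gives 90 coding bases in the direction of transcription, from the start codon for 6 genes and from coding base 10 to base 99 for Gstm5, whose protein begins with extra residues. Capitals mark bases unlike Gstm1.
Gstm1: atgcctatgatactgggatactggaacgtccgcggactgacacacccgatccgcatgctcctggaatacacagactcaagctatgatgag
Gstm2: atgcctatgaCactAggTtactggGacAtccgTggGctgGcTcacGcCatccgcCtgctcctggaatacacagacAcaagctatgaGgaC
Gstm3: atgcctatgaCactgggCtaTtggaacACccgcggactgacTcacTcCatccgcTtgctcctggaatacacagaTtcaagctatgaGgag
Gstm4: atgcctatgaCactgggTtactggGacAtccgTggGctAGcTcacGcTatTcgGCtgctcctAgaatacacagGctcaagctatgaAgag
Gstm5: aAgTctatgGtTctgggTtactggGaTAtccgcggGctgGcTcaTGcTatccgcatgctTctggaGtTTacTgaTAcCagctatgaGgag
Gstm6: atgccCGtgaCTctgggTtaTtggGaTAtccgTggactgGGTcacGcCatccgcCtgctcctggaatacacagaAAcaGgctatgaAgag
Gstm7: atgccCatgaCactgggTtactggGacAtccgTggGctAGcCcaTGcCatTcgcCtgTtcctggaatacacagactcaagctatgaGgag
Gstm5 differed from Gstm1 at 23 of these bases and the other mu genes at 11 (Gstm3) to 20 (Gstm6). Over the whole coding sequence Gstm5 shared 66.6 to 70.7% of bases with the other mu genes, whereas the closest pair, Gstm1 and Gstm3, shared 89.4%. Of all 50-base windows of the Gstm5 transcript, 14.4% occurred elsewhere among annotated transcripts, and these lay in 4933431E20Rik, a transcript annotated on the opposite strand. The same share was 23.1% for Gstm1, 28.8% for Gstm3, 11.5% for Gstm6, 9.36% for Gstm2, and 0 for Gstm4, Gstm7, Gsta3 and Gsta4. For windows of 150 bases, the length of a read, it was at most 3.64% for each of the mu and alpha genes.

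The pi class was different. Gstp1 lay beside its near copy Gstp2, and the table also counted Gstp-ps, annotated as a pseudogene on chromosome 1. Coding bases 91 to 180 of Gstp1 and the matching stretches are shown because they leave few bases by which a read could be placed. Capitals mark bases unlike Gstp1.
Gstp1: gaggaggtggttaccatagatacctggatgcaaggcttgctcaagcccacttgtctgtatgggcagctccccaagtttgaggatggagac
Gstp2: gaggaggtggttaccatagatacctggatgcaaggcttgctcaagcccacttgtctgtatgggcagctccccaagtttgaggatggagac
Gstp-ps: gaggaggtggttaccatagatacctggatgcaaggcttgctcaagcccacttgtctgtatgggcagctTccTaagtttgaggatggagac
Gstp2 had 0 unlike bases and Gstp-ps had 2. Of the Gstp1 transcript, 62.3% of 50-base and 41.8% of 150-base windows occurred also in Gstp2 or Gstp-ps. The count of Gstp1 is therefore uncertain as a level of that gene alone.

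The total count on genes was 3205822 to 9366774 per library, and values are given as CPM, in which every library's counts are scaled to the same sum. A count of 3, taken as the smallest amount detected, corresponded to 0.320 to 0.936 CPM. With edgeR's quasi-likelihood test, 0 of 17231 genes tested were called at 2-fold and a Benjamini-Hochberg adjusted P under 0.05 (0% of genes), and the smallest adjusted P was 0.832. At an unadjusted P under 0.05 there were 976 genes. Several libraries stood apart. The library labelled RAG1-/- replicate 2 held 1853 reads of the antibody light chain gene Igkc, against 8 in replicate 1 and 0 in the other 4 libraries, which goes against the label of a mouse without B cells. Replicate 1 held 7717 reads of Xist, which is transcribed in female cells, against 4 to 8 elsewhere, and 2 reads of the Y-linked Ddx3y against 342 to 1228. Replicate 6 held 19501 reads of the macrophage gene Chil3, with 6096 in replicate 1 and 1234 to 1590 in the other 4. Replicates 4 and 6, both RAG1-/- Sgo1-/+, held 114 and 101 reads of the MHC class I gene H2-K1, against 1092 to 2377 in the other 4. The cause of that difference was not tested. The reads on Sgo1 numbered 6, 2 and 4 against 6, 0 and 2 with Sgo1-/+, too few to check the genotype. Those on Rag1 numbered 24, 10 and 16 against 12, 8 and 8, and whether they fall in the deleted part of the gene cannot be read from gene counts. Markers of lung were high in every library, with summed CPM of 6 alveolar type 2 markers between 20540 and 29980.

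All 10 genes passed the filter on low counts. To compare levels between genes, CPM were divided by transcript length. Gstm1 had the highest mean level over the 6 libraries with 199.9 CPM per kb, followed by Gsta3 with 152.3, Gstm2 with 95.6, Gsta4 with 83.7 and Gstp1 with 35.3. The other 5 were far lower, with 7.24 for Gstm4, 4.90 for Gstm6, 4.88 for Gstm5, 3.10 for Gstm7 and 0.730 for Gstm3. At 3 steps in this order the ranges over libraries did not overlap, namely Gsta3 (115.6 to 178.1) over Gstm2 (79.8 to 114.6), Gsta4 (66.6 to 98.0) over Gstp1 (30.8 to 42.6), and Gstp1 over Gstm4 (5.57 to 9.47). All other neighbours in the order overlapped, including Gstm1 (159.5 to 251.1) and Gsta3. The place of Gstp1 in this order is uncertain, since it depends on how reads were assigned among Gstp1, Gstp2 and Gstp-ps. Outside the 10 genes, Gstp-ps had a mean of 371.4 CPM per kb, above Gstm1, and Gstp2 had 30.8. In RAG1-/- the mean of Gstm5 was 7.52 ± 1.85 CPM per kb (SD, n = 3), above that of Gstm4 at 6.21 ± 0.649. Their ranges overlapped, and in replicate 2 Gstm5 (6.842) lay just below Gstm4 (6.865). In RAG1-/- Sgo1-/+ Gstm5 stood at 2.25 ± 1.39, and of the 10 genes only Gstm3, at 0.882 ± 0.850, had a lower mean.

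**Figure D1:**
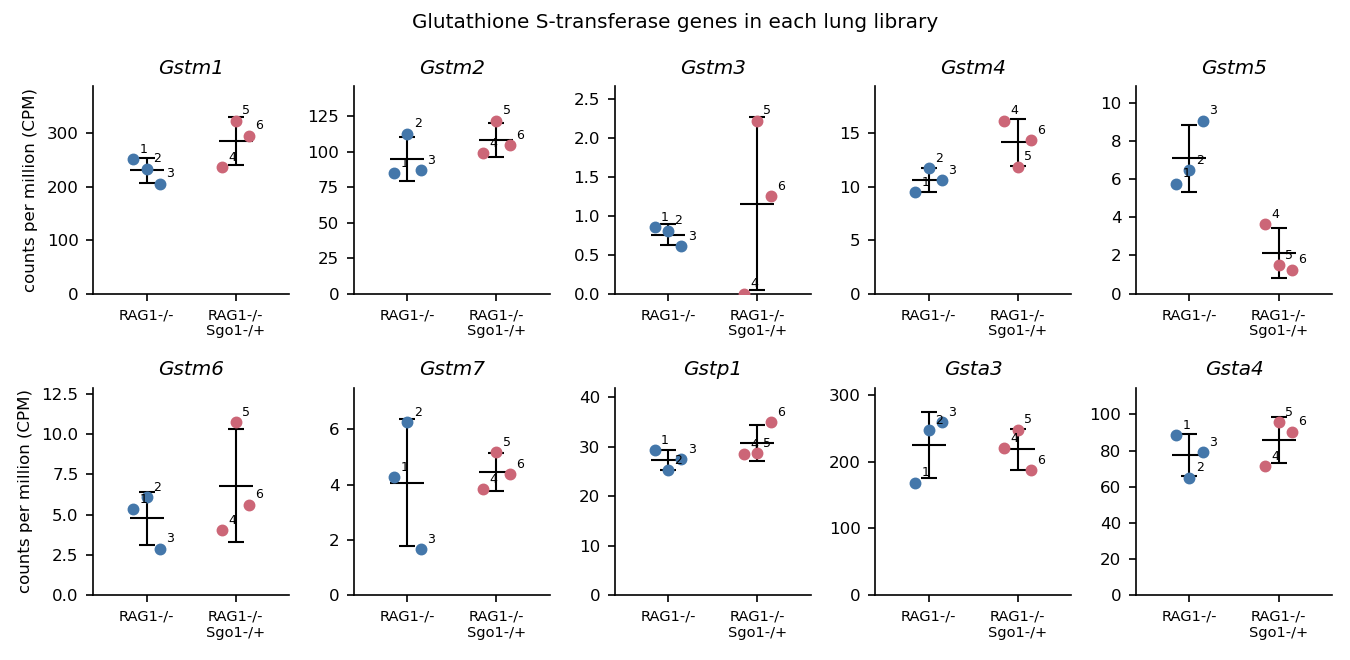
CPM of each of the 10 genes (vertical axes, linear and from 0, scaled separately) in the 3 RAG1-/- libraries (blue) and the 3 RAG1-/- Sgo1-/+ libraries (red), numbered by replicate, with black lines for the mean and SD. Gstm5 lies at 5.77 to 9.08 CPM in RAG1-/- and at 1.25 to 3.64 in RAG1-/- Sgo1-/+, Gstm4 is apart in the opposite direction, and the groups overlap for the other 8 genes.

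Gstm5 was counted with 54, 32 and 60 reads in RAG1-/- replicates 1 to 3 and with 18, 8 and 4 in RAG1-/- Sgo1-/+ replicates 4 to 6. In CPM these were 5.77, 6.46 and 9.08 against 3.64, 1.48 and 1.25. All 3 libraries of the second group lay below all 3 of the first. The means were 7.10 ± 1.75 and 2.12 ± 1.32 CPM (SD, n = 3 each), a log2 fold change of -1.70 (SE 0.46, 95% interval -2.72 to -0.68), or 3.24-fold lower. The edgeR adjusted P was 0.832, so Gstm5 was not called. Since the study chose Gstm5 for this difference, these values are a description. The study also reported lower Gstm5 by quantitative PCR in lungs of Sgo1-/+ than of wild-type mice, without the RAG1 deletion. Replicates 1, 2, 4 and 6 stood apart in other genes. The log2 fold change of Gstm5 was -2.34 without replicate 4, which held most of the group's Gstm5 reads. It was -1.83, -1.76 and -1.48 without replicates 1, 2 and 6. The antisense transcript 4933431E20Rik was counted 11, 8 and 13 times in RAG1-/- and 5 times in each RAG1-/- Sgo1-/+ library (log2 fold change -0.46, SE 0.63, edgeR adjusted P = 0.924). The library kit does not mark the strand, so reads from the overlap of both genes cannot be told apart. In a bulk tissue, fewer cells that express a gene and less RNA per cell cannot be told apart either.

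The 6 other mu class genes had log2 fold changes above 0 on counts scaled to library totals, and with unscaled counts 5 of them were below 0 and Gstm3 was at 0. Unscaled counts carry the difference in depth between the groups and put the median of all genes at -0.59. Relative to that median the 6 genes lay between 0.165 (Gstm7) and 0.589 (Gstm3). Gstm1, the most abundant, was at 251.3, 233.6 and 205.7 CPM in RAG1-/- and at 236.8, 323.6 and 295.4 in RAG1-/- Sgo1-/+. Replicate 4 lay within the range of RAG1-/-, and replicates 5 and 6 lay above it. The log2 fold change was 0.31 (SE 0.15, 95% interval -0.02 to 0.64, edgeR adjusted P = 0.832, exact permutation P = 0.2). For Gstm2, 84.9, 112.7 and 87.2 CPM stood against 98.8, 121.9 and 104.8, with overlap (log2 fold change 0.20, SE 0.15, edgeR adjusted P = 0.865).

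Gstm4 was the only member apart from Gstm5 whose groups did not overlap. It was at 9.50, 11.7 and 10.6 CPM in RAG1-/- and at 16.2, 11.9 and 14.4 in RAG1-/- Sgo1-/+, so that it was higher where Gstm5 was lower. The gap between the groups was small, from 11.7 to 11.9 CPM. The log2 fold change was 0.42 (SE 0.22, 95% interval -0.08 to 0.92, edgeR adjusted P = 0.832, exact permutation P = 0.1, the smallest that 3 against 3 libraries allow). Among all tested genes 11.8% had groups that did not overlap and 5.54% did so with RAG1-/- Sgo1-/+ lower. Here these were 2 and 1 of the 10 genes, but both counts include Gstm5, which the study chose for this difference. Of the 9 relatives only Gstm4 had groups apart, and none had them apart with RAG1-/- Sgo1-/+ lower.

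The 3 rarer mu genes were spread widely. Gstm6 had 5.34, 6.06 and 2.88 CPM in RAG1-/- against 4.04, 10.7 and 5.62 in RAG1-/- Sgo1-/+, with overlap (log2 fold change 0.53, SE 0.44, edgeR adjusted P = 0.872). Gstm7 had 4.27, 6.26 and 1.67 against 3.84, 5.19 and 4.37 CPM (log2 fold change 0.15, SE 0.48, edgeR adjusted P = 0.974). Its sign turned to -0.22 without RAG1-/- replicate 3, the lowest of the 6. Gstm3 was near the limit of detection with 8, 4 and 4 reads against 0, 12 and 4 (log2 fold change 0.60, SE 1.02, edgeR adjusted P = 0.945), and its sign turned to -0.45 without replicate 5. For Gstm3 a decrease almost as large as that of Gstm5 was not excluded, as its 95% interval ran from -1.68 to 2.88.

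Gstp1 and the alpha class genes differed little between the groups. Gstp1, the main pi class enzyme, was at 29.2, 25.3 and 27.4 CPM in RAG1-/- and at 28.5, 28.7 and 34.9 in RAG1-/- Sgo1-/+, with overlap (log2 fold change 0.16, SE 0.15, edgeR adjusted P = 0.886). Its neighbour Gstp2 was at 20.7, 22.2 and 21.5 against 23.0, 30.4 and 29.3 CPM, without overlap (log2 fold change 0.36, SE 0.17, edgeR adjusted P = 0.832). Gstp-ps took 77.8 to 83.2% of the reads of the 3 copies and stood at 227.0 ± 10.3 and 241.8 ± 25.02 CPM (SD, n = 3 each). When the 3 copies were summed before the fit, the level was 275.7 ± 10.1 against 300.1 ± 26.1 CPM and the log2 fold change 0.12 (SE 0.12, 95% interval -0.15 to 0.39). If each read was counted once, the sum does not depend on how reads were divided among the copies. Whether reads that match several copies were counted once is not known here.

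Gsta3, known for the conjugation of the aflatoxin epoxide in mice, was the second most abundant member. It was at 168.5, 247.7 and 259.5 CPM in RAG1-/- and at 220.4, 248.2 and 187.2 in RAG1-/- Sgo1-/+. The groups overlapped throughout, and the log2 fold change was -0.04 (SE 0.18, 95% interval -0.44 to 0.36, edgeR adjusted P = 0.981). It was the only relative of Gstm5 with a value below 0, and its sign turned when any one of replicates 2, 3 or 6 was left out, with 0.03 to 0.07. Gsta4, which clears hydroxynonenal from oxidised lipids, was at 88.6, 65.1 and 79.0 CPM against 71.5, 95.8 and 90.5 (log2 fold change 0.14, SE 0.16, 95% interval -0.21 to 0.50, edgeR adjusted P = 0.899).

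Of the 9 relatives, 0 reached an unadjusted P under 0.05 in edgeR's test, where 5.66% of all tested genes did so and 2.52% with a lower level in RAG1-/- Sgo1-/+. None of their 95% intervals held the log2 fold change of Gstm5, although that of Gstm3 ended close to it. Gstm5 was chosen by the study for its difference and had an interval of its own, -2.72 to -0.68. The intervals of Gstm3 (from -1.68) and Gstm7 (from -0.92) overlapped that interval. The intervals of 8 relatives, all but Gstm3, lay above a 2-fold decrease. With counts scaled to library totals, 8 of the 9 had a log2 fold change above 0, whereas with unscaled counts, which put the median of all genes at -0.59 in place of 0.03, 8 were below 0 and Gstm3 was at 0. Relative to that median the 9 lay between 0.01 and 0.59, and Gstm5 at -1.68. Without replicate 1, the library with Xist reads, the relatives ranged from -0.21 to 0.71, without replicate 2, the library with Igkc reads, from 0.03 to 0.72, and without replicate 6 from 0.06 to 0.65.

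**Figure D2:**
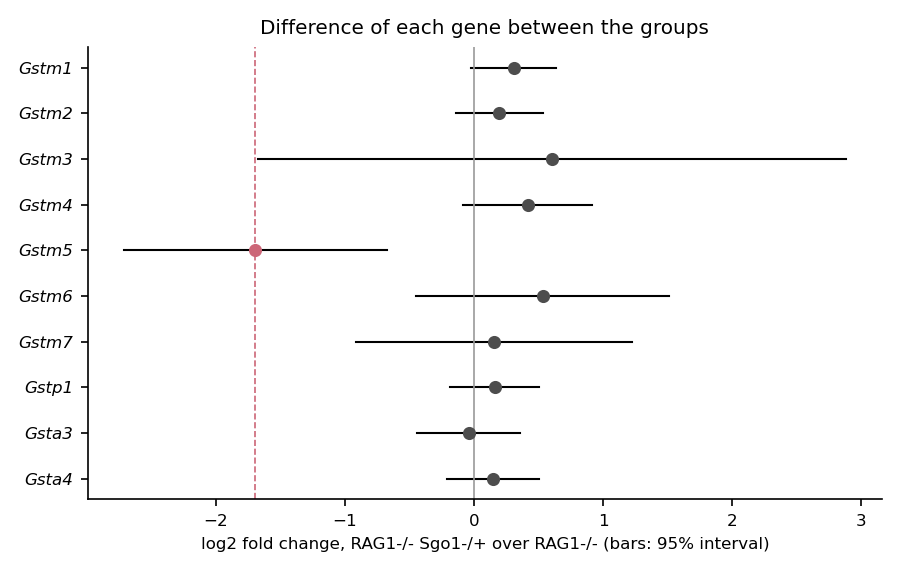
Log2 fold change of each gene, RAG1-/- Sgo1-/+ over RAG1-/- (horizontal axis), with bars for the 95% interval from the edgeR fit on counts scaled to library totals and a dashed line at the value of Gstm5. Gstm5 lies at -1.70, and the other 9 points lie between -0.04 and 0.60, 8 of them above 0 here. None is above 0 with unscaled counts, which carry the difference in depth between the groups.

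A ratio within a library needs no scaling between libraries. Gstm5 took 1.59% of all mu class reads in RAG1-/- replicate 1 (95% Wilson interval 1.22 to 2.07), 1.71% in replicate 2 (1.22 to 2.41) and 2.86% in replicate 3 (2.23 to 3.66). In RAG1-/- Sgo1-/+ it took 1.001% in replicate 4 (0.634 to 1.58), 0.311% in replicate 5 (0.158 to 0.612) and 0.292% in replicate 6 (0.114 to 0.749). The intervals, which cover counting error only, separated replicates 5 and 6 from all of RAG1-/-, whereas that of replicate 4 overlapped those of replicates 1 and 2. They take each read as independent. With the counts halved, as if both mates of a pair had been counted, replicate 5 (up to 0.796%) stayed below all of RAG1-/-, but replicate 6 (up to 1.058%) reached replicate 2 (from 1.056%). The mean share was 2.06 ± 0.699% in RAG1-/- and 0.535 ± 0.404% in RAG1-/- Sgo1-/+ (SD, n = 3 each). Gstm1 took 65.3 ± 3.83% and 67.4 ± 2.03%, and Gstm2 took 26.9 ± 3.23% and 25.8 ± 1.34%. The 6 mu genes other than Gstm5 together made 345.3 ± 32.7 CPM in RAG1-/- and 420.3 ± 58.2 CPM in RAG1-/- Sgo1-/+, and all 9 relatives made 675.4 ± 33.4 and 755.5 ± 85.4 CPM.

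**Figure D3:**
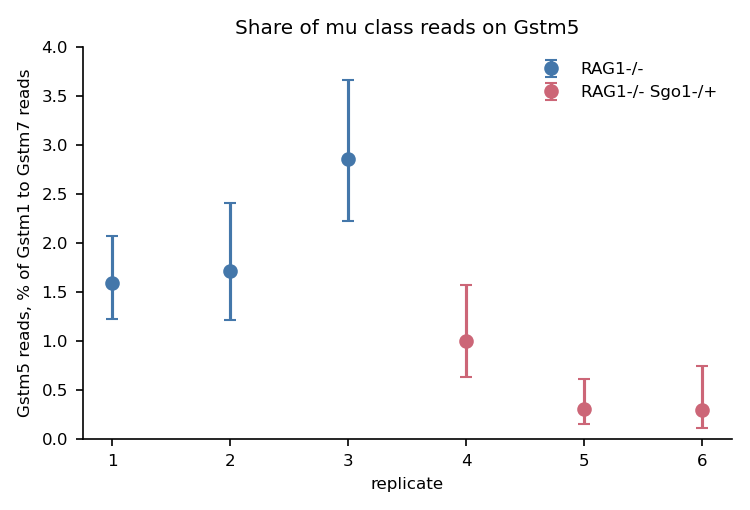
Reads of Gstm5 as a percentage of the reads of Gstm1 to Gstm7 (vertical axis) in each library, by replicate number (horizontal axis), with bars for the 95% Wilson interval. RAG1-/- libraries (blue) lie at 1.59 to 2.86% and RAG1-/- Sgo1-/+ libraries (red) at 0.292 to 1.001%.

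Across the 6 libraries the genes most like Gstm5 in log2 CPM, among 13998 genes with a mean of at least 2 CPM, were Pik3cb (Pearson r = 0.995), Zfp955a (0.991), 1110004F10Rik (0.990), Zfp709 (0.988) and Clec14a (0.985). These coefficients describe 6 points that share the group difference and the libraries, and no test is attached. Of the relatives Gsta3 was most like Gstm5, with r = 0.229, and the other 8 had r between -0.438 (Gstm3) and -0.923 (Gstm1). The genes most like Gstm1 were Zmynd10 (r = 0.999), Casc1 (0.995), Slc6a9 (0.989), Marchf4 (0.989) and Rab36 (0.988). Zmynd10 encodes an assembly factor of the dynein arms of motile cilia.

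The summed level of ciliated cell markers ordered the libraries as Gstm1 did, whereas most single markers did not. All 8 on the list were measured, and all 8 had a log2 fold change above the median of all genes, or 7 of 8 with unscaled counts. Their median was 0.36. At an unadjusted P under 0.05 in edgeR's test 2 of the 8 were higher, against 3.15% of all tested genes. They were the master regulator Foxj1 (0.58) and the dynein gene Dnah9 (0.52), both with an adjusted P of 0.832. The summed level of the 8 markers was 721.5, 515.8 and 487.1 CPM in RAG1-/- and 595.4, 893.2 and 804.2 in RAG1-/- Sgo1-/+, with overlap. From the lowest library to the highest, both this sum and Gstm1 ran through replicates 3, 2, 4, 1, 6 and 5. Of the 8 markers 1, Dnah9, had that order by itself, and the sum was weighted by Foxj1, the most abundant. Gstm5 did not follow that order, being highest in replicate 3. The part of ciliated cells in the level of Gstm1 was not tested.

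**Figure D4:**
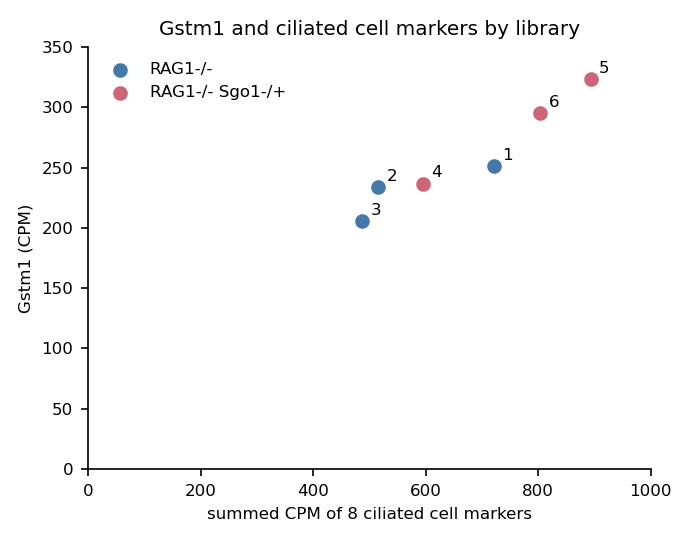
Gstm1 in CPM (vertical axis) against the summed CPM of 8 ciliated cell markers (horizontal axis), 1 point per library numbered by replicate, both axes linear and from 0. Gstm1 runs from 205.7 CPM in replicate 3, where the marker sum is 487.1, to 323.6 CPM in replicate 5, where it is 893.2.

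Markers of other cell types are given beside these results, and their part in them was not tested. Lower and higher here mean an unadjusted P under 0.05 in edgeR's test, which 2.52% of all tested genes met with a lower and 3.15% with a higher level in RAG1-/- Sgo1-/+. Groups did not overlap for 11.8% of all tested genes, and for 5.54% with RAG1-/- Sgo1-/+ lower. The 6 club cell markers, of airway cells rich in detoxifying enzymes, had a median log2 fold change of 0.02 with 0 at an unadjusted P under 0.05, and their sums overlapped, 57210 to 84200 CPM in RAG1-/- and 61100 to 86800 in RAG1-/- Sgo1-/+. The 6 alveolar type 2 markers had a median of -0.01 and the 5 alveolar type 1 markers of -0.10, with 0 at that threshold in each list. The 5 endothelial markers had a median of -0.18 with 0 past it and sums of 1372 to 1427 against 1077 to 1378 CPM. Among them Tek, the angiopoietin receptor, was at 142.3 to 147.2 in RAG1-/- and at 86.1 to 130.8 CPM in RAG1-/- Sgo1-/+, and the junction gene Cdh5 also had groups apart with the second below the first (-0.19 on the log2 scale). Tie1, the receptor related to Tek, had groups apart in the opposite direction, with 108.0 to 109.4 against 110.4 to 121.4 CPM (0.11). Of 6 fibroblast markers 1 was lower, Lum (-0.70), with a list median of -0.26. Of 5 smooth muscle markers, with a list median of 0.74, 3 contractile genes were higher and had groups that did not overlap, namely Acta2 (1.67-fold), Cnn1 (1.94-fold) and Actg2 (2.70-fold), each with an edgeR adjusted P of 0.832. The sums of this list overlapped, 116.8 to 166.9 against 157.2 to 232.7 CPM. Of 5 cardiac markers 0 passed, with a median of -0.04. Of 6 adipocyte markers 3 were lower, with a sum of 217.7 CPM in replicate 1 against 29.0 to 43.8 in the other 5 libraries. Of 5 macrophage markers Siglecf was lower and Chil3 higher, with a sum of 6371 CPM in replicate 6 against 336.8 to 783.7 elsewhere. Of 6 B and plasma cell markers 4 were lower, with a sum of 642.5 CPM in replicate 2 against 6.67 to 9.18 elsewhere.

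Other soluble glutathione transferases were read as well. Of 15 on the list, 14 were in the table and 12 had enough reads to be tested, 0 reached an unadjusted P under 0.05 in edgeR's test, and 6 lay above and 6 below the median of all genes, with scaled as with unscaled counts (list median 0.11, against 0.03 over all genes). Gsto1, an omega class enzyme that reduces dehydroascorbate, was at 156.0, 141.2 and 132.7 CPM in RAG1-/- against 107.5, 161.2 and 335.6 with Sgo1-/+. It had a log2 fold change of 0.48 (SE 0.33, edgeR adjusted P = 0.855), which was -0.09 without replicate 6, the library with high Chil3. Gstz1, which also serves in tyrosine breakdown, was at 110.0, 105.3 and 115.3 against 78.6, 103.0 and 95.8 CPM, without overlap (log2 fold change -0.25, SE 0.14, edgeR adjusted P = 0.832). Gstt1, a theta class enzyme, was at 90.6, 91.3 and 95.5 against 87.3, 87.1 and 80.5 CPM, also without overlap (log2 fold change -0.12, SE 0.12, edgeR adjusted P = 0.884). Gstp3 (0.45), Hpgds (0.41), which makes prostaglandin D, Gsta2 (0.40) and Gstk1 (0.25) had values above 0 on the log2 scale, and Gstt2 (-0.15), Gsto2 (-0.08), Gstcd (-0.07) and Gstt3 (-0.03) had values below 0.

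The microsomal enzymes sit in membranes and are unrelated in sequence. Mgst1 had more CPM than any of the 10 members in every library. It was at 856.5, 1077 and 952.3 CPM in RAG1-/- and at 800.4, 1008 and 758.6 in RAG1-/- Sgo1-/+, with overlap (log2 fold change -0.17, SE 0.15, edgeR adjusted P = 0.875). Of the 6 on the list 0 reached an unadjusted P under 0.05, and the median log2 fold change was 0.02. The widest value was that of Ltc4s, the leukotriene synthase, with 0.44 (SE 0.35).

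The supply and use of glutathione were covered by 4 further lists. Of 9 genes of synthesis and precursor uptake, 0 reached an unadjusted P under 0.05, with a median of 0.05. Slc7a11, the cystine carrier that feeds glutathione synthesis, was at 4.27, 6.46 and 6.66 CPM in RAG1-/- against 4.85, 11.9 and 14.97 with Sgo1-/+ (log2 fold change 0.86, SE 0.41, edgeR adjusted P = 0.832; 0.55 without replicate 6). Replicate 4 lay within the RAG1-/- range and the other two above it. Gclc and Gclm, the subunits of the rate-limiting ligase, named here for that role, had log2 fold changes of 0.12 (SE 0.14) and -0.08 (SE 0.16). Of 13 genes of breakdown and export 0 passed, with a median of 0.13. Anpep, a surface peptidase, was at 141.9 CPM in replicate 6 and at 51.3 to 74.8 in the other libraries, and its log2 fold change of 0.50 was -0.05 without that library.

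Of 14 genes that reduce peroxides or glutathione itself 0 passed either, 10 lay below the median of all genes, with scaled as with unscaled counts, and the list median was -0.07. Gpx8, a peroxidase of the endoplasmic reticulum, was at 113.4, 115.4 and 102.5 CPM in RAG1-/- and at 96.4, 98.5 and 92.3 in RAG1-/- Sgo1-/+, without overlap (log2 fold change -0.20, SE 0.12, edgeR adjusted P = 0.834). Gpx2, the peroxidase of epithelia, was at 83.2 to 90.5 against 74.3 to 169.1 CPM, the highest value again in replicate 6, without which its log2 fold change of 0.39 was 0.02. Of 20 genes of the NRF2 response, the transcriptional program that raises many GSTs under oxidative stress, 0 passed, and the median log2 fold change was 0.07. Ftl1, a ferritin chain, was at 785.5 to 794.4 CPM in RAG1-/- and at 756.8, 852.6 and 1963 in RAG1-/- Sgo1-/+, where the last value was that of replicate 6. Its log2 fold change of 0.59 was 0.03 without that library. Fth1 (0.27, SE 0.15) and Me1 (-0.29, SE 0.17) were the next in order of P.

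**Figure D5:**
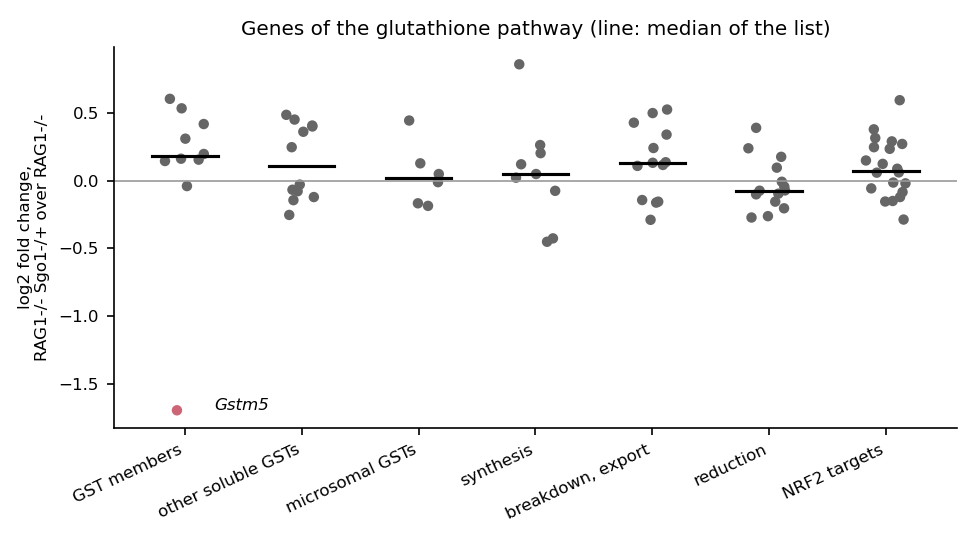
Log2 fold change, RAG1-/- Sgo1-/+ over RAG1-/- on counts scaled to library totals (vertical axis), of each tested gene in 7 lists (horizontal axis; horizontal jitter has no meaning), with a line at the median of each list. The list medians lie between -0.07 and 0.18, and Gstm5 (red) at -1.70 is the lowest of the genes shown.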

How the data were processed

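Total RNA of the lungs was made into libraries with a kit that does not mark strand and sequenced on a MiSeq as read pairs of 150 bases. The authors deposited whole-number read counts per gene without normalization, made with GeneSifter on mouse Build 37.2. BWA and edgeR are named in the submitters' processing notes. How reads that match several places were treated is not given in the sources used here. Each library's counts stand in the table under a pair of headings with identical values, and 1 was used. A second deposited file, which holds the authors' own comparison (fold changes and P values), was not used.

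Samples were grouped by genotype label. Replicate numbers 1 to 6 are those of the labels and pair no samples. Genes with at least 10 counts over the 6 libraries were fitted in R 4.3.3 by edgeR 4.0.16 and its quasi-likelihood test, with total counts as library sizes, fold changes at a prior count of 0.125, and Benjamini-Hochberg adjustment over all genes tested. The SE was taken as the ratio of log2 fold change to the root of F, and intervals are 95%. Exact permutation tests of CPM were two-sided. The test workflow was checked on simulated counts. Shares used Wilson intervals. Gene symbols came from a RefSeq gene list matched by Entrez Gene ID, which gave 93.0% of genes a symbol. Sequences, transcript lengths and strands came from GENCODE vM21 (GRCm38), matched by gene symbol. Coordinates are not given, as the counts are on the earlier build. Transcripts were compared with biopython 1.88, and figures were drawn with matplotlib. Likeness used log2 CPM with a prior count of 2.

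The genes named are the 10 members, any tested GST, at most 3 per glutathione or NRF2 list and 2 per marker list by smallest unadjusted P, the 5 genes most like Gstm5 and Gstm1, and Sgo1, Rag1, Xist, Ddx3y and Igkc. Gclc, Gclm, Gstp-ps, 4933431E20Rik, Tie1, Acta2, Awat1 and H2-K1 were named after their values were seen. The members and lists were chosen with earlier results of these data known. Alternatives were edgeR's TMM, DESeq2 size factors, unscaled counts, no filter, filterByExpr, DESeq2 1.42.0, limma-voom (limma 3.58.1), halved counts, a prior count of 2 and each library left out. Summing the pi class copies and halving the counts behind the mu class shares were added after the data were seen.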

Additional observations from a re-analysis of the deposited data

How the results depend on the processing

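The count of called genes was 0, and 72 with unscaled counts, 1 with DESeq2 (Awat1, 65 reads in replicate 6 and 0 elsewhere), and 0 to 1 with each library left out (H2-K1 without replicate 5). At an unadjusted P the 976 genes became 1661 with unscaled counts and 571 to 1420 with a library left out. Unscaled counts follow the lower depth of RAG1-/- Sgo1-/+. They put the log2 fold change at -0.33 for Gstm1, -0.38 for Gstm2, -0.19 for Gstm4 and -0.044 for Gstm6. It was -0.42 for Gstm7, -0.51 for Gstp1, -0.53 for Gsta4 and -2.27 for Gstm5. With these counts Gstm5 was past the threshold (edgeR adjusted P = 0.0254), among 72 genes called, 61 of them lower. In the main fit its edgeR adjusted P was 0.832. As the study chose Gstm5 for this difference, neither value is an independent test of it. Under its 15 alternatives Gstm5 ranged from -2.34 to -1.46, with an adjusted P between 0.0254 and 0.997. With limma-voom Gstm3 was at -0.32. Leaving out 1 library at a time gave -0.45 to 1.204 for Gstm3, -0.22 to 0.56 for Gstm7, -0.21 to 0.074 for Gsta3 and 0.21 to 0.43 for Gstm1. Gstm1 reached an unadjusted P of 0.0131 without replicate 4 (edgeR adjusted P = 0.570), and no other relative did so in any alternative. The cause of these changes was not tested, apart from the scaling. Gstm3 was removed by filterByExpr and has no value there. No paired analysis was possible because the groups share no replicate numbers.

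Depth limits the rare genes most. Gstm5 had 4 to 18 reads in RAG1-/- Sgo1-/+. Counts from 4 to 100 were even in 72.4% of values over all genes and in 6 of 6 for Gstm5, and halving the counts, as if both mates of a pair had been counted, left 0 genes called. Whether the labelled libraries are what their labels say was not tested beyond the genes given. Littermates, cages and library batches are not given in the labels, and 3 mice per group allow no exact permutation P under 0.1.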
